A study of Mus musculus with 27 samples.

Results

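The regions described here are the 10-kb bins of the autosomes that carried the most H3K9me3 in mouse embryonic fibroblasts (MEFs). Bins were counted from position 1 of each chromosome of the mm9 build, and a bin was taken when its summed H3K9me3 reads reached 2.5 times the mean autosomal bin in the MEF library while its H3 reads were at most 2 times the mean in both MEF H3 libraries. Of 247243 autosomal bins, 557 reached the H3K9me3 level (0.225%), 104 of these were above the H3 limit, and 453 remained, called H3K9me3-rich bins below. They were chosen on the MEF H3K9me3 and H3 reads, so these values are a description and were not tested. A level is the number of reads in a bin divided by the mean autosomal bin of the same library, so that 1 is the genome average and not an amount of modified histone.

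The study followed MEFs through reprogramming into partially reprogrammed cells (pre-iPSCs) and induced pluripotent stem cells (iPSCs) with MNase ChIP-seq and RNA-seq. H3, H3K4me3, H3K27me3 and RNA were measured in 2 libraries per cell type and H3K9me3 in 1. MEFs came from E13.5 embryos that carried Oct4-GFP and Rosa26 alleles, with CBA/CaJ and C57BL/6J named as background in the labels and 129Sv/Jae as the maternal strain in the methods; pre-iPSCs were 2 stable clones made by retroviral delivery of the Yamanaka factors, and iPSCs were the corresponding reprogrammed cells. Both were grown with serum and LIF on MEF feeders, so fibroblast chromatin and RNA from feeders may be present in them. The clone behind a library is not given, and p-values measure the spread between the 2 libraries of a group. MEFs were digested with more MNase for a shorter time than the other cells, so that digestion and cell type cannot be told apart in any comparison with MEFs.

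H3K9me3 marks compacted, repressed chromatin. It is written by the Suv39h and Setdb1 methyltransferases, bound by the HP1 proteins (Cbx1, Cbx3 and Cbx5), and is known at satellite repeats, at transposable elements and at the 3' exons of many zinc finger genes. H3K27me3 is the mark of the Polycomb group, which keeps developmental regulators silent, and H3K4me3 is the mark of active and poised promoters. In differentiated cells H3K9me3 domains are known as an obstacle to reprogramming.

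The deposited calls held 12404217, 12942154 and 12222861 H3K9me3 reads in MEFs, pre-iPSCs and iPSCs, which gave a mean autosomal bin of 48.1, 51.0 and 48.1 reads. The lowest H3K9me3-rich bin therefore held 121 reads in MEFs. Fibroblast markers went with the labels, all 8 of them being lower in pre-iPSCs and in iPSCs than in MEFs. These calls were by limma at an adjusted p under 0.05 and at least 2-fold, as for every gene call below. All 8 pluripotency markers were higher in iPSCs than in MEFs. In pre-iPSCs 4 of the 8 were called higher than in MEFs, and 4 were under 1 FPKM in each library. Summed FPKM of the pluripotency markers was 616 and 3526 for pre-iPSCs, which were far apart, and 1832 and 2021 for iPSCs. The summed FPKM of the fibroblast markers was 7594 and 9206 for MEFs, 1120 and 843 for pre-iPSCs, and 392 and 510.2 for iPSCs; no fibroblast marker was under 1 FPKM in any library, and the part of feeders in the values below was not tested. Replicate 1 of pre-iPSC H3 stood apart, with a median of 0.577 over all autosomal bins where the other 5 H3 libraries had 0.906 to 1.09.

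The sequences shown are of 2 kinds. The first is the coding sequence of zinc finger genes. The 5 nucleosomes below were chosen among the highest H3K9me3-rich bins with at least 4 linker motifs, as the call with the most MEF H3K9me3 reads that lay wholly in a coding exon and held the linker motif. The motif is a run of bases that covers the usual codons of the short linker between neighbouring C2H2 zinc fingers. Each is 147 bases of mm9 written 5′ to 3′ on the strand of its gene, with the linker motif in capitals.
Zfp146, chr7:30947032-30947178, minus strand: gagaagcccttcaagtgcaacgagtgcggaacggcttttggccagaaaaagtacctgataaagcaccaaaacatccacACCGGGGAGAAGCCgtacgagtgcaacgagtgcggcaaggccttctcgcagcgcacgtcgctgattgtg
Zfp27, chr7:30679852-30679998, minus strand: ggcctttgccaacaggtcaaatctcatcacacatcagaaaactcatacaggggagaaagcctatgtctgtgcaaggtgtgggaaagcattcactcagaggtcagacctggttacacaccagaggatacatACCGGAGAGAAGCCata
Zfp810, chr9:22082856-22083002, minus strand: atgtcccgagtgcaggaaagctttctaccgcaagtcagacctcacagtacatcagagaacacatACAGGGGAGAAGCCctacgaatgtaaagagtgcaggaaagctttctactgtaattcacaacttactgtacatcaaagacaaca
Zfp286, chr11:62593375-62593521, minus strand: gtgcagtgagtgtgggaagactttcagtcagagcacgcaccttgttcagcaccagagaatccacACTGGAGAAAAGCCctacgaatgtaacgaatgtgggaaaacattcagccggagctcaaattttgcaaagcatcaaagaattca
Zfp2, chr11:50713999-50714145, minus strand: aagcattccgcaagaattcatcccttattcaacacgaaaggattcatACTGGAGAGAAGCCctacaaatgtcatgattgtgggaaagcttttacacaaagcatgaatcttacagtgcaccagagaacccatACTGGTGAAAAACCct

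These called nucleosomes held 9, 12, 6, 7 and 5 MEF H3K9me3 reads in the order given, where the median call of their bins held 4 or 5. They were picked for their reads, so values above the median were favoured by the pick and nothing is read from them. The motif was searched on both strands of mm9. It was found at least once in 47 of the 453 H3K9me3-rich bins (10.4%) and in 1.81% of all autosomal bins, and at least 5 times in 28 of them (6.18%) against 0.182%. Of the 449 autosomal bins with at least 5 motifs, 28 (6.24%) were H3K9me3-rich, against 0.183% of all autosomal bins. Most bins with the motifs were thus not H3K9me3-rich. The median level of the 449 bins in MEFs was 0.708 for H3K9me3 and 0.253 for H3K27me3, so both were below the genome mean. A motif match is a description of the letters and not a site of methylation.

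The second kind is the upstream sequence of genes below 1 FPKM in MEFs. The 2 genes shown were picked after their values were seen. The stretches below are the 250 bases of mm9 before the annotated start of Prdm8, a histone methyltransferase family gene that changed during reprogramming, and of Nkx2-5, a homeobox gene of heart development, with each CG dinucleotide in capitals; no annotated exon overlaps them.
Prdm8, chr5:98609637-98609886, plus strand: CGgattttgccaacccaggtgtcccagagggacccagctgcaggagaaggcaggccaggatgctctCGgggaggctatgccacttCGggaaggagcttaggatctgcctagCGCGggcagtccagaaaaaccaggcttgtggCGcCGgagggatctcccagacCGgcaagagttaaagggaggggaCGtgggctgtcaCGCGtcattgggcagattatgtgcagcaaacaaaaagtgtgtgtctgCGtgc
Nkx2-5, chr17:26978511-26978760, minus strand: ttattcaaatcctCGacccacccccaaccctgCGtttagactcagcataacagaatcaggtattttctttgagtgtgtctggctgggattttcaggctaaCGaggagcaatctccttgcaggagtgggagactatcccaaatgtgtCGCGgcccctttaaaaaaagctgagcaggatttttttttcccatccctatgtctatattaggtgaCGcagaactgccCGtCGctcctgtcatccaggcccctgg

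They held 12 and 8 CG dinucleotides. Over the 59 genes starting in H3K9me3-rich bins the median was 10, and 52.5% of these promoters held at least 10. The values for all 19297 autosomal promoters read in the same way were 11 and 54.3%, so the genes starting in the bins were close to the genome in this respect.

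The bins themselves were richer in G and C than the genome. Their median GC content was 47.9% (quartiles 45.13% and 50.15%) against 41.4% over autosomal bins. They held a median of 11.1 CG dinucleotides per kb against 7.4. By the GENCODE annotation of the same build, 7.96% of their bases were exonic against 3.34% of the autosomal genome, 37.2% were intronic against 37.3%, and 54.8% were intergenic against 59.4%. GC content bears on the rule itself: against autosomal bins of the same GC content in the same library, the median H3K9me3 of the bins was 2.23 for MEFs, 1.38 for pre-iPSCs and 1.28 for iPSCs, and 103 of the 453 were at 2.5 or more in MEFs. A RefSeq gene overlapped 208 of them (45.9%, against 40.4%), and 53 held the start of at least 1 gene (11.7%, against 7.12%).

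The H3K9me3-rich bins were mostly isolated. They formed 402 runs of adjacent bins, of which 357 were single bins, 40 were pairs, 4 had 3 bins and 1 had 4. They made up 0.183% of all autosomal bins and took 0.514% of the autosomal H3K9me3 reads of MEFs (exact 95% binomial interval 0.510% to 0.518%, covering counting error only). Chromosome 11 had the highest share of its bins among them (48 bins, 0.394%) and chromosome 18 the lowest (6 bins, 0.0661%). In the first 3.5 Mb of the autosomes, beside the satellite arrays of the centromeres, 8 of 939 bins with sequence were H3K9me3-rich, a higher share than the 0.183% of all autosomal bins; this difference was not tested.

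In 11 of the 453 bins a single called nucleosome held at least 25% of the MEF H3K9me3 reads, and these are called pile-up bins. The 3 highest bins of all were of this kind. At chr6:103590001-103600000, in the cell adhesion gene Chl1, the level was 8.55 in MEFs and 90.3% of the reads were in 1 call. At chr12:3100001-3110000, with no annotated gene, it was 7.10 and 96.2% were in 1 call. At chr12:75900001-75910000 it was 7.03 and 51.2% were in 1 call. In the first 2 of these bins the value rests almost wholly on 1 position of about a nucleosome in length. Without the 11 bins, 34 bins in pre-iPSCs and 42 in iPSCs were at 2.5 or more, 431 and 417 were below their MEF level, and the counts of called bins given below for H3K27me3 were 53 in place of 54 and 64 in place of 65.

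H3K27me3 split the H3K9me3-rich bins into unlike groups. The mean H3K27me3 level of the 2 MEF libraries was at least 2 in 311 bins, between 1 and 2 in 74 and at most 1 in 68. In all, 172 of the 453 bins (38.0%) were at 2.5 or more in both MEF H3K27me3 libraries, as were 1952 of all autosomal bins (0.790%), and those 172 made up 8.81% of the 1952. The H3K9me3 level exceeded the H3K27me3 level of both MEF libraries in 248 of 453 bins and the H3K4me3 level of both in 427. At the lower cut of 2 for H3K27me3, 311 of the 453 bins were thus high in both marks in bulk MEFs. At the cut of 2.5 used for H3K9me3, 172 were. This does not say whether both marks were on the same chromosomes. Across 239393 autosomal bins the 2 marks had a Spearman correlation of 0.748 for MEFs, 0.835 for pre-iPSCs and 0.810 for iPSCs. These points share GC content and mappability, and H3K9me3 had a rho of 0.322, 0.608 and 0.603 with GC content.

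The 2 groups differed in what they held. In the 311 bins with high H3K27me3 the median GC content was 48.7%, 58.6% of the bases were intergenic and 43 bins held the start of a gene. In the 68 bins with low H3K27me3 it was 43.8%, 22.0% of the bases were exonic, 56 bins overlapped a RefSeq gene and 6 held a start. At least 5 linker motifs were found in 24 of these 68 bins and in 2 of the 311.

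Zinc finger genes accounted for a large part of the bins with low H3K27me3. Of 413 autosomal genes with a zinc finger symbol (starting with Zfp, Zscan, Zkscan, Zik, Znf, Zbtb or Rslcan), 34 overlapped an H3K9me3-rich bin (8.23%), against 204 of all 19300 autosomal genes (1.06%). They covered 36 bins, of which 32 had low H3K27me3, and these 36 bins were 7.95% of all H3K9me3-rich bins where zinc finger genes met 0.643% of autosomal bins. Clustered protocadherins, cell surface proteins of neurons, overlapped in 12 of 59 genes (20.3%), but these genes share exons and a few bins on chromosome 18. No gene of 1102 olfactory receptors, 323 vomeronasal receptors and 67 histones overlapped an H3K9me3-rich bin. Of the solute carriers 6 of 350 did so (1.71%), of the cytochromes P450 2 of 98 (2.04%), of the collagens 1 of 42 (2.38%), and of the Hox genes 2 of 39 (Hoxb13 and Hoxc12).

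The longest run, chr11:96020001-96060000, covered 40 kb around Hoxb13, a posterior Hox gene, and part of Ttll6, a tubulin glutamylase gene. Its 4 bins held 566 H3K9me3 reads for MEFs, 311 for pre-iPSCs and 316 for iPSCs. The levels were 2.94 (exact 95% Poisson interval of the count 2.71 to 3.20), 1.53 (1.36 to 1.70) and 1.64 (1.47 to 1.83). The MEF interval lay above both others, which overlapped each other; such intervals cover counting error only, as for all H3K9me3 levels, which have no replicate. H3K27me3 levels there were 3.56 and 3.07 for MEFs, 2.46 and 2.48 for pre-iPSCs, and 2.35 and 2.88 for iPSCs, so both MEF libraries were above the other 4.

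Of the 5 runs of at least 3 bins, the one with the highest mean level, chr7:30920001-30950000, held the zinc finger genes Zfp382 and Zfp146 and 11 linker motifs. It had 540 H3K9me3 reads for MEFs, 467 for pre-iPSCs and 173 for iPSCs. The levels were 3.75 (3.44 to 4.08), 3.05 (2.78 to 3.34) and 1.2 (1.03 to 1.39). Pre-iPSCs were closer to MEFs than to iPSCs, where the level came near the genome mean. H3K27me3 was 0.59 and 0.66 for MEFs, 0.90 and 0.77 for pre-iPSCs and 1.16 and 0.72 for iPSCs. H3K4me3 was 2.30 and 3.52, 3.97 and 2.63, and 1.56 and 2.04 in the same order, and both iPSC libraries were below the other 4. The other long runs were at Rbak, a zinc finger repressor gene at chr5:143910001-143940000 (2.73, 2.17 and 1.5 for MEFs, pre-iPSCs and iPSCs), at Asb18 at chr1:91850001-91880000 (2.59, 1.53 and 1.68), and in a stretch without annotated genes at chr11:84740001-84770000 (2.69, 1.56 and 1.27).

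H3K9me3 was lower in pre-iPSCs and iPSCs in nearly all of the bins. The median level was 2.68 for MEFs (quartiles 2.58 and 2.85), 1.82 for pre-iPSCs (1.63 and 2.10) and 1.70 for iPSCs (1.45 and 2.06). It was below the MEF level in 442 bins in pre-iPSCs and in 428 in iPSCs, as were 49.5% and 51.6% of all autosomal bins. The 95% Poisson interval lay wholly below that of MEFs in 252 and 273 bins, against 1.7% and 2.49% of all bins, and wholly above in 1 and 6, against 2.76% and 4.23%. These shares stand beside counts that the choice of bins by a high MEF level already favours, so nothing is read from them. A level of at least 2.5 was kept by 34 bins in pre-iPSCs (7.51%, against 0.105% of all autosomal bins) and by 45 in iPSCs (9.93%, against 0.467%). A level of at most 1.5 was found in 69 bins in pre-iPSCs (15.2%, against 89.1% of all bins) and in 134 in iPSCs (29.6%, against 87.9%). On this scale 4 and 10 bins were below 1. Divided by H3, the medians were 1.97 for MEFs, 0.923 for pre-iPSCs and 1.03 for iPSCs, so whether the bins stayed above the genome mean depended on the scaling. At least a 1.5-fold lower level than in MEFs was found in 226 bins in pre-iPSCs, where 8.51% of all autosomal bins with reads had one, and in 265 in iPSCs, where 10.9% had one.

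**Figure D1:**
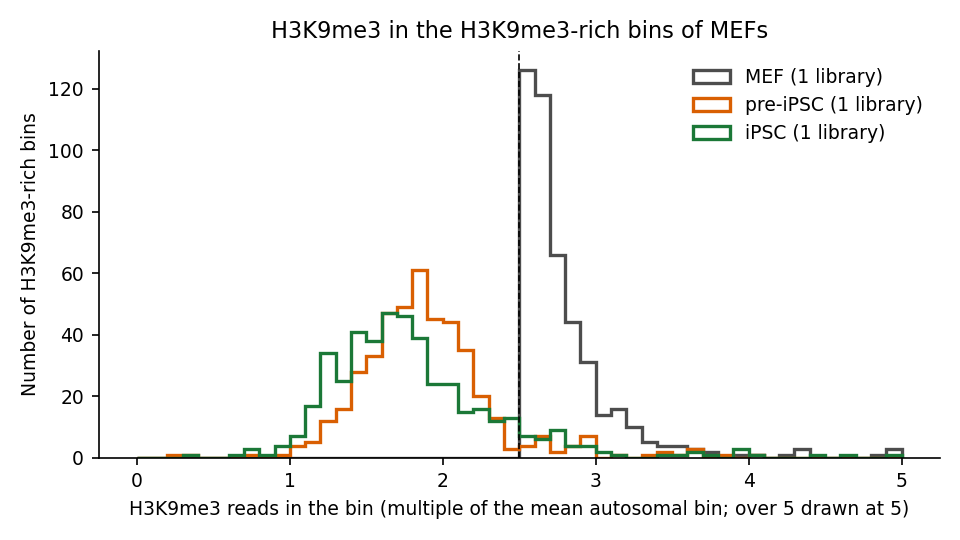
Number of H3K9me3-rich bins (y axis) by H3K9me3 level (x axis, multiple of the mean autosomal bin, in steps of 0.1) in the 1 library of each cell type; levels over 5 are drawn at 5, and the dashed line is the level of 2.5 that chose the bins in MEFs. The medians are 2.68 for MEFs, 1.82 for pre-iPSCs and 1.70 for iPSCs.

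Bins chosen as high in 1 library tend to be lower in another, and how much of the fall comes with the choice was not tested. The same rule in the iPSC files gave 354 of the 247243 autosomal bins. Of these 354, 343 were lower in MEFs, with a median of 1.5 for MEFs, 1.51 for pre-iPSCs and 2.72 for iPSCs. It shared 16 bins with the MEF list, which is 3.53% of the MEF bins and 4.52% of the iPSC bins. Without the H3 limit the iPSC files gave 1154 bins and the MEF files 557, of which 105 were shared (9.10% and 18.9%). The pre-iPSC files gave 25 bins, 12 of them shared, but this number depends on replicate 1 of pre-iPSC H3: with replicate 2 alone in the limit it was 141, with 34 shared. The iPSC number depends on replicate 1 of iPSC H3 too. With replicate 2 alone in the limit it was 1032, with 45 shared (9.93% of the MEF bins). Bins just inside and just outside the rule were alike: the 126 bins at 2.5 to 2.6 (121 to 124 reads) had medians of 1.78 in pre-iPSCs and 1.72 in iPSCs, and the 264 bins at 2.4 to 2.5 (116 to 120 reads) had 1.69 and 1.62.

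Among the H3K9me3-rich bins, those meeting a zinc finger gene and those with high H3K27me3 did not follow the same course. In the 36 bins meeting a zinc finger gene the median H3K9me3 was 2.91 for MEFs, 2.29 for pre-iPSCs and 1.34 for iPSCs. In the 311 bins with high H3K27me3 it was 2.66, 1.79 and 1.72. A level of 2.5 was kept by 13 of the 36 zinc finger bins in pre-iPSCs and by none in iPSCs, while 4 and 19 of the 311 did so. At most 1.5 was left in 25 of the 36 in iPSCs and in 1 in pre-iPSCs. All 36 were lower in iPSCs than in MEFs, 33 of them with intervals apart, against 31 and 13 in pre-iPSCs. These bins too were chosen for a high MEF level, and the shares of all bins are those given above. Over all 1590 autosomal bins meeting a zinc finger gene the medians were 0.978, 1.14 and 1.02 in MEFs, pre-iPSCs and iPSCs. Of these 1590 bins, 555 were lower in pre-iPSCs than in MEFs and 765 were lower in iPSCs. With 1 library per cell type the difference between the groups of bins was not tested. The groups also differed in GC content, with medians of 42.3% in the 36 bins and 48.7% in the 311. H3K9me3 went with GC content to an unlike degree in the 3 libraries (rho 0.322, 0.608 and 0.603), and the part of this was not tested.

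**Figure D2:**
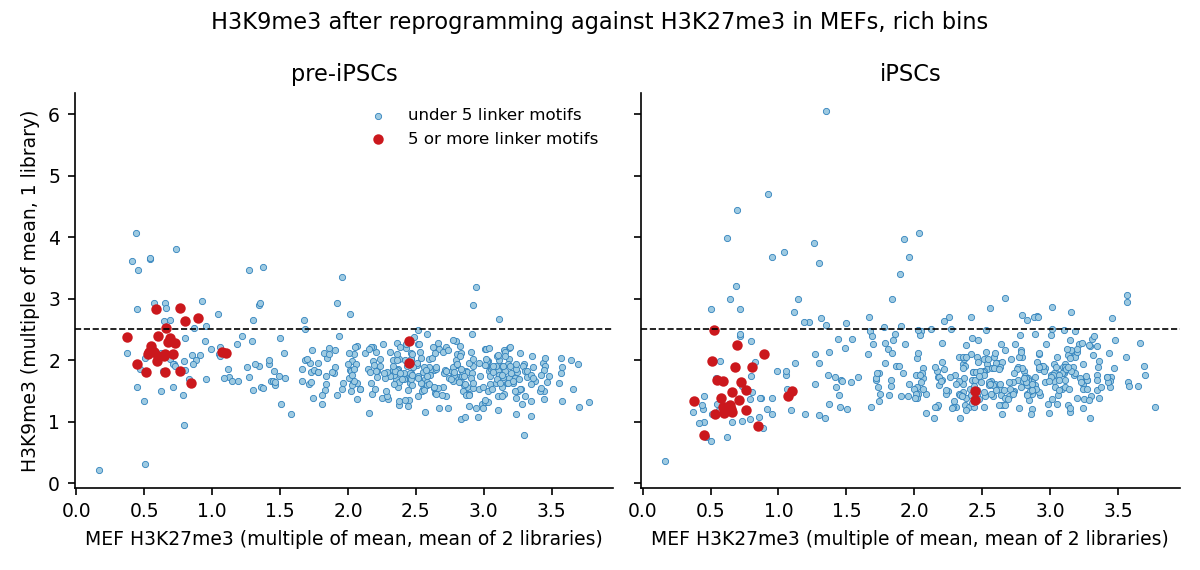
H3K9me3 level of each of the 453 bins in pre-iPSCs (left) and iPSCs (right) on the y axis against the mean H3K27me3 level of the 2 MEF libraries on the x axis, both as multiples of the mean autosomal bin; red points hold at least 5 linker motifs and the dashed line is 2.5. Most red points lie at an H3K27me3 level under 1, and they sit lower in iPSCs than in pre-iPSCs.

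Around the bins the mean H3K9me3 level fell off differently in the 2 groups. In the bins with high H3K27me3 the mean H3K9me3 level of MEFs was 2.75 in the window 0.5 kb downstream of the centre, 1.96 at 9.5 kb, 1.71 at 25.5 kb and 1.45 at 49.5 kb. In iPSCs the same positions had 1.87, 1.59, 1.61 and 1.45, so that MEFs and iPSCs met about 50 kb away. In the bins with low H3K27me3 the MEF level was 3.20 at 0.5 kb, 1.70 at 9.5 kb, 1.16 at 25.5 kb and 1.03 at 49.5 kb. The iPSC level there was 1.57 and 1.26 at the first 2 of these. In MEFs the low group thus ended near the genome mean and the high group above it. The rule set a high MEF level at the centre. The groups were split on MEF H3K27me3, which went with H3K9me3 across all bins, so the shapes are a description. Of the 68 bins with low H3K27me3, 32 met a zinc finger gene, so the shape is not that of zinc finger genes alone.

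**Figure D3:**
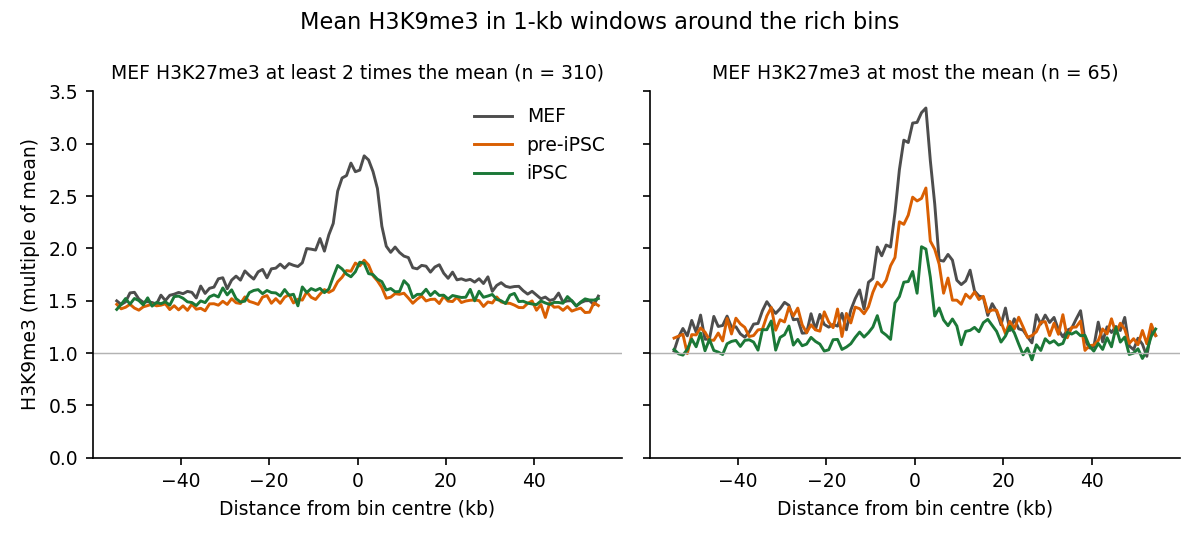
Mean H3K9me3 level (y axis, multiple of the mean) in 1-kb windows by distance from the bin centre (x axis, kb) in the 3 cell types, for H3K9me3-rich bins with high (left, n = 310) and low (right, n = 65) H3K27me3 in MEFs, without pile-up bins. At 49.5 kb from the centre the MEF level is 1.45 on the left and 1.03 on the right.

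Single bins showed these courses. The bin of Zfp146, chr7:30940001-30950000, held 209 reads for MEFs, 177 for pre-iPSCs and 68 for iPSCs, or levels of 4.35 (3.78 to 4.98), 3.47 (2.98 to 4.02) and 1.41 (1.10 to 1.79). The bin of Zfp810, chr9:22080001-22090000, held 205, 144 and 80 reads, or 4.27 (3.70 to 4.89), 2.83 (2.38 to 3.33) and 1.66 (1.32 to 2.07). The bin of Zfp110, chr7:13430001-13440000, held 192, 149 and 71 reads, or 4.00 (3.45 to 4.60), 2.92 (2.47 to 3.43) and 1.48 (1.15 to 1.86). In all 3 bins the iPSC interval was below both others.

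Of the 5 bins with the largest fall from MEFs to iPSCs, chr12:3100001-3110000 (7.10 to 0.35) is the pile-up bin named above. At chr2:177300001-177310000, without an annotated gene, H3K9me3 was 2.62, 0.31 and 0.69, and the MEF libraries of the other marks went apart: H3 was 0.23 in replicate 1 and 1.62 in replicate 2, H3K27me3 0.11 and 0.89, and H3K4me3 0.28 and 1.68. The other large falls were at chr10:78530001-78540000 in the exons and introns of 2610008E11Rik (3.18, 1.86 and 0.75 in MEFs, pre-iPSCs and iPSCs), chr7:30930001-30940000 beside Zfp146 (4.33, 2.85 and 1.18) and chr16:13540001-13550000 in Parn, a poly(A) ribonuclease gene (3.14, 2.00 and 0.89). At the other end, the 5 bins that changed least from MEFs to iPSCs overlapped no RefSeq gene, and by GENCODE 2 of them lay in introns of Uncx and Gm20388. An example is chr17:3030001-3040000 with 134 reads for MEFs, 95 for pre-iPSCs and 134 for iPSCs (2.79, 1.86 and 2.78). The highest bin that was not a pile-up, chr17:56630001-56640000, also intergenic, stayed high in all 3 libraries at 4.87 (4.27 to 5.53), 3.36 (2.87 to 3.90) and 3.68 (3.16 to 4.26).

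H3K27me3 itself changed in about as many of the bins as elsewhere. The median level was 2.35 and 2.51 for MEFs, 2.02 and 2.12 for pre-iPSCs, and 1.94 and 1.97 for iPSCs. The MEF libraries were thus above the other 4. The bins were chosen on MEF H3K9me3, which went with MEF H3K27me3 across all bins. The choice therefore favours a high MEF level and falls from it, and its part in the counts against MEFs was not tested. By edgeR's quasi-likelihood test over all bins (Benjamini-Hochberg adjusted p under 0.05), 54 of 452 H3K9me3-rich bins tested differed between pre-iPSCs and MEFs, 22 higher and 32 lower, where 13.0% of all bins tested were called. Between iPSCs and MEFs 65 differed, 27 higher and 38 lower, where 11.9% were called. Between iPSCs and pre-iPSCs 4 differed, where 0.112% were called; 3 were higher and 1 lower, where 0.0712% and 0.0407% of all bins were. The first 2 counts correspond to shares near the genome. Among all bins 9.68% were called higher and 3.31% lower in pre-iPSCs than in MEFs, and 8.8% and 3.13% in iPSCs. The split of the bins by direction depended on the test and on single libraries: between iPSCs and MEFs it was 11 higher and 10 lower by DESeq2, 33 and 24 without iPSC replicate 2, 8 and 13 without iPSC replicate 1, and 13 and 29 without MEF replicate 1. Between pre-iPSCs and MEFs it was 4 and 9 by DESeq2, 4 and 23 without MEF replicate 1, 5 and 7 without pre-iPSC replicate 1, and 12 and 13 without pre-iPSC replicate 2. Called bins sorted with their starting level, since 37 of the 38 falls to iPSCs were in bins with high H3K27me3 in MEFs and 21 of the 27 rises in bins with low; the MEF values chose these groups, so this is a description.

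The largest H3K27me3 rise to iPSCs among the bins was in Plec. At chr15:76000001-76010000 in this gene, which encodes the cytoskeletal linker plectin, H3K27me3 was 0.44 and 0.64 for MEFs, 0.74 and 0.46 for pre-iPSCs, and 1.87 and 1.71 for iPSCs. Its log2 change from MEFs to iPSCs was 1.77 (SE 0.24, edgeR adjusted p = 9.9e-05), and H3K9me3 was 2.89, 3.67 and 1.70 in MEFs, pre-iPSCs and iPSCs. H3 in this bin, which is 60.1% GC, was 0.89 and 1.09, 6.62 and 0.89, and 3.92 and 1.23, so the replicate 1 libraries of pre-iPSCs and iPSCs stood high, and the part of this in the result was not tested. At chr5:144000001-144010000 in Zfp12 the 6 values were 0.38, 0.71, 0.76, 0.57, 1.78 and 1.52 (log2 change 1.64, SE 0.25, edgeR adjusted p = 0.00031), with H3K9me3 at 3.27, 3.65 and 1.29. At chr10:79200001-79210000 in Polrmt, the mitochondrial RNA polymerase, the change was 1.54 (SE 0.31), and H3K9me3 was 2.77, 4.06 and 1.27. Zfp334 and Zfp90 completed the 5 largest rises, with log2 changes of 1.41 and 1.4.

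The largest H3K27me3 fall to iPSCs was in a bin without an annotated gene. At chr5:113750001-113760000 H3K27me3 was 2.66 and 2.63 for MEFs, 1.72 and 2.47 for pre-iPSCs, and 0.73 and 0.97 for iPSCs (log2 change -1.57, SE 0.21, edgeR adjusted p = 7.5e-05), and H3K9me3 was 3.12, 1.86 and 1.27. The other 4 were at chr6:30130001-30140000 without a gene (-1.21), at Slc15a1, an intestinal peptide transporter (-1.16), at Izumo2, a sperm protein (-0.93), and at chr11:84750001-84760000 in the gene-free run named above (-0.93).

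H3K4me3 was above the genome mean in the bins in every library, with medians of 1.45 and 1.92 for MEFs, 2.04 and 1.69 for pre-iPSCs, and 1.89 and 1.83 for iPSCs. The 2 MEF libraries were at unlike levels, and the lower of them was below all others. Between pre-iPSCs and MEFs 19 bins differed, 12 higher and 7 lower, where 5.55% of all bins tested were called (3.54% higher and 2.01% lower); without the pile-up bins 14 were called, 12 higher and 2 lower. This split was not stable: it was 3 higher and 6 lower without MEF replicate 1, 23 and 4 without MEF replicate 2, 4 and 1 without pre-iPSC replicate 1, 0 and 1 without pre-iPSC replicate 2, and 6 and 3 by DESeq2. Between iPSCs and MEFs 81 of 453 differed (edgeR), 56 higher and 25 lower, where 13.2% of all bins were called (7.97% higher and 5.26% lower); without the pile-up bins 77 were called, 56 higher and 21 lower. That balance rested on the MEF libraries: without MEF replicate 1 it was 7 higher and 32 lower, and without MEF replicate 2 it was 68 higher and 9 lower. Between iPSCs and pre-iPSCs no bin was called (edgeR called 0.0309% of all bins, 0.0276% higher and 0.00325% lower), with 0 also by DESeq2. By edgeR 51 were at an unadjusted p under 0.05, where 20967 of all 246197 bins tested were.

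**Figure D4:**
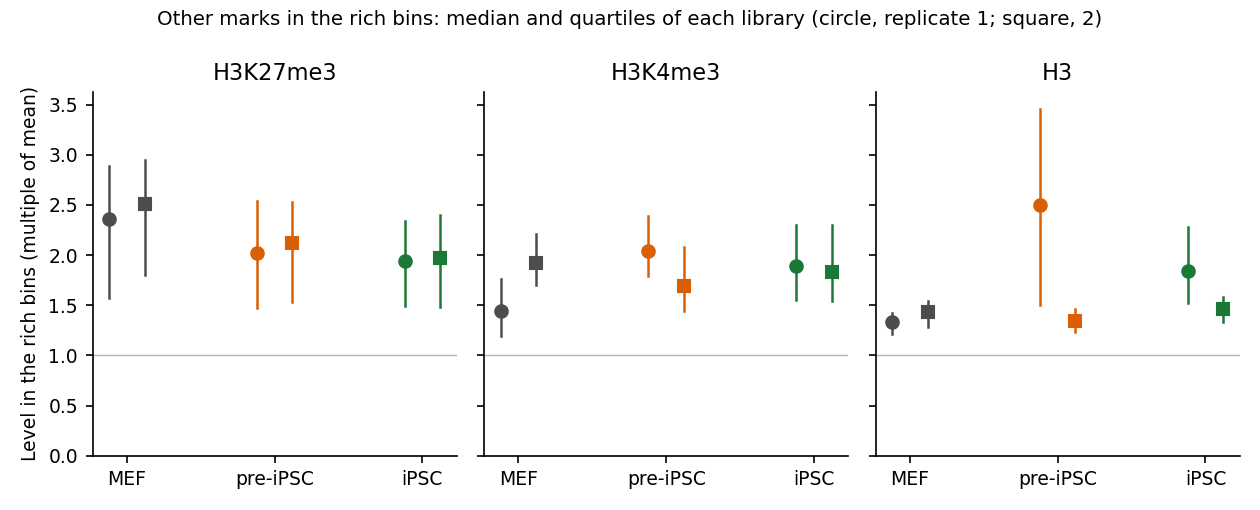
Median level (points) and quartiles (lines) of H3K27me3, H3K4me3 and H3 in the 453 bins for each library, as multiples of the mean autosomal bin, with circles for replicate 1 and squares for replicate 2. H3K27me3 is highest in MEFs, the H3K4me3 libraries of MEFs differ (1.45 and 1.92), and replicate 1 of pre-iPSC H3 stands at 2.5.

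At the zinc finger bins the called H3K4me3 changes to iPSCs were mostly falls. The bins were chosen on MEF reads of H3K9me3, and the part of this choice in the falls was not tested. In these 36 bins the median H3K4me3 level was 1.87 and 2.70 for MEFs, 2.6 and 1.71 for pre-iPSCs, and 1.39 and 1.48 for iPSCs, so both iPSC libraries were below the other 4. Between iPSCs and MEFs 15 of the 36 differed by the edgeR test, 1 higher and 14 lower, where 13.2% of all bins were called (7.97% higher and 5.26% lower). This count was not stable: it went up or down with the library left out, and the count over all bins moved in the same fits. By DESeq2 9 of the 36 were lower, where 964 of all 246197 bins tested were. The other 417 bins are those that met no gene with a zinc finger symbol. They still held Rbak and 5 bins with at least 5 linker motifs. In the 417 bins 66 differed, 55 higher and 11 lower. Called falls in the zinc finger bins were at chr7:13420001-13430000 in Zfp110, with 3.70 and 3.69 for MEFs, 3.12 and 2.30 for pre-iPSCs, and 1.44 and 1.5 for iPSCs (log2 change -1.25, SE 0.25, edgeR adjusted p = 0.0012), at Zfp37 (-1.19) and at Zfp945 (-1.15). The H3K27me3 medians of the 36 bins were 0.63 and 0.60 for MEFs, 0.94 and 0.71 for pre-iPSCs, and 0.95 and 0.76 for iPSCs, and 8 bins differed between iPSCs and MEFs, all of them higher in iPSCs, where 11.9% of all bins were called and 8.8% called higher. This count was 4 by DESeq2, where 7375 of all 245852 bins tested were called. It was also smaller without iPSC replicate 1 or without MEF replicate 1, as was the count over all bins.

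The largest H3K4me3 rise to iPSCs was at chr17:13740001-13750000, in Tcte2 by GENCODE, with 1.64 and 1.88 for MEFs, 2.99 and 2.08 for pre-iPSCs, and 4.73 and 3.31 for iPSCs (log2 change 1.27, SE 0.26, edgeR adjusted p = 0.0014). H3K9me3 in this bin was 2.75, 2.92 and 6.05, the highest iPSC level of all 453 bins. The next were at Nr5a1, the gene of a steroidogenic nuclear receptor (1.24), and at 3 genes of the nervous system: Syt7, a calcium sensor of vesicle fusion (1.08), Grm4, a glutamate receptor (1.04), and Sez6, a seizure-related membrane protein (1.01). In the Nr5a1 bin H3K27me3 was 3.25 and 3.32 for MEFs, 3.19 and 3.14 for pre-iPSCs, and 3.23 and 3.09 for iPSCs, so both MEF values were slightly above the other 4. The largest fall was at the pile-up bin chr12:3100001-3110000 (-3.19), where MEF H3K4me3 was 2.91 and 2.92 and the other 4 libraries had 0.27 to 0.33.

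H3 was bounded by the rule in MEFs only. Its median level in the bins was 1.34 and 1.43 for MEFs, 2.5 and 1.35 for pre-iPSCs, and 1.84 and 1.47 for iPSCs. Replicates 1 and 2 of pre-iPSCs were further apart than any pair of cell types in replicate 2. Between iPSCs and pre-iPSCs no bin was called by edgeR (0.0% of all bins), with 0 also by DESeq2. By edgeR 1 was at an unadjusted p under 0.05, where 476 of all 250460 bins tested were. The direction turned with 1 library: the median log2 change of the bins was -0.51 with all libraries and 0.44 without pre-iPSC replicate 1. Without pre-iPSC replicate 2, which leaves only the library that stood apart, 271 bins were called, 32 higher and 239 lower, where 148966 of all 251033 bins tested were called.

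Genes starting in the H3K9me3-rich bins were mostly below 1 FPKM in MEFs. At least 1 FPKM was reached by 6 of the 59 genes in each MEF library (10.2%), where 52.4% and 51.4% of all 20156 genes did so. In pre-iPSCs 12 and 8 of the 59 did so, and in iPSCs 12 and 14. The 2 groups of bins differed here too: 1 of the 48 genes in bins with high H3K27me3 was at or above 1 FPKM in each MEF library, against 5 of the 7 in bins with low H3K27me3. That 1 gene was the homeobox gene Hmx1, at 1.07 and 1.26 FPKM in MEFs.

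The 5 of highest mean level in MEFs were Orc2, a subunit of the origin recognition complex (12.3 ± 9.11 FPKM, SD, n = 2), Polrmt (7.56 ± 0.16), the protocadherin genes Pcdhgb4 (7.19 ± 6.46) and Pcdhga6, and Zfp110 (8.05 and 6.06 FPKM). Pcdhgb4 and Pcdhga6 share exons with their neighbours, so their own level is uncertain. None of the 5 was called in any comparison.

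Of the 59 genes, 17 passed the filter of a mean of 0.5 FPKM over the 6 libraries and were tested. Between pre-iPSCs and MEFs 5 differed, all of them higher in pre-iPSCs, where 16.4% of all 12401 genes tested were called. Between iPSCs and pre-iPSCs 3 were higher and 4 lower, where 8.62% were called (3.91% higher and 4.71% lower). Without iPSC replicate 1 or without iPSC replicate 2 only 1 gene, higher in iPSCs, was called in this comparison, with 91 and 36 of all genes tested. Between iPSCs and MEFs 5 differed, all of them higher in iPSCs, where 25.9% were called. A gene silent in MEFs could pass the filter only through pre-iPSCs or iPSCs, so these counts do not support a direction. The fold changes are on the log2(FPKM + 1) scale, which understates low genes.

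The genes called between pre-iPSCs and MEFs were highest in pre-iPSCs. Cyp4f39, a cytochrome P450 of fatty acid hydroxylation, was at 0 and 0.03 FPKM for MEFs, 24.6 and 11.7 for pre-iPSCs, and 0.39 and 0.20 for iPSCs. It rose by 4.15 from MEFs to pre-iPSCs (SE 0.39, limma adjusted p = 0.0013) and fell by 3.8 to iPSCs (limma adjusted p = 0.0023). Grin1, a subunit of the NMDA receptor, was at 0.13 and 0.55, 10.9 and 20.9, and 1.44 and 1.41 FPKM, with log2 changes of 3.61 and -2.74. Prdm8 was at 0.19 and 0.12, 2.84 and 2.43, and 0.20 and 0.08 FPKM, with 1.65 and -1.67. Hmha1, a minor histocompatibility antigen gene, was at 0.51 and 0.31, 21.6 and 19.2, and 5.12 and 5.69 FPKM, and differed in all 3 comparisons (3.93, -1.74 and 2.18 from iPSCs against MEFs). Alox15, a lipoxygenase, was listed at 0 in both MEF libraries, 1.22 and 5.63 FPKM in pre-iPSCs, and 0.49 and 0.26 in iPSCs, and was called higher in pre-iPSCs than in MEFs. H3K9me3 in the bins of these 5 genes was 2.58 to 2.85 in MEFs, 1.26 to 1.67 in pre-iPSCs and 1.29 to 2.10 in iPSCs. Over all 453 bins, which were chosen for a high MEF level, the medians were 2.68, 1.82 and 1.70. At 2 genes near 0 FPKM in all 6 libraries it was 2.58, 1.31 and 1.25 (Gsx2) and 3.45, 1.88 and 3.91 (Gm6531). A link of H3K9me3 with expression was not tested.

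The other called genes were highest in iPSCs. Fkbp6, an immunophilin of germ cells, was listed at 0 in both libraries of MEFs and of pre-iPSCs and at 17.0 and 9.01 FPKM in iPSCs (log2 change from MEFs 3.74, SE 0.36, limma adjusted p = 0.0011). H3K9me3 in its bin was 3.18, 2.90 and 1.48. Nphs1 and Kirrel2, neighbouring genes of the nephrin family that start in the same bin, were at 6.22 and 5.19 and at 5.39 and 4.07 FPKM in iPSCs and at most at 0.0258 in the other 4 libraries. H3K9me3 in that bin was 2.75, 1.39 and 1.23 in MEFs, pre-iPSCs and iPSCs. Both bins were chosen for a high MEF level, and a link with expression was not tested here either. Hoxb13 was listed at 0 in both MEF libraries, 1.21 and 0.42 FPKM in pre-iPSCs, and 3.42 and 2.34 in iPSCs, and was called between iPSCs and MEFs (1.94, SE 0.32, limma adjusted p = 0.0056) but not in the other comparisons.

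**Figure D5:**
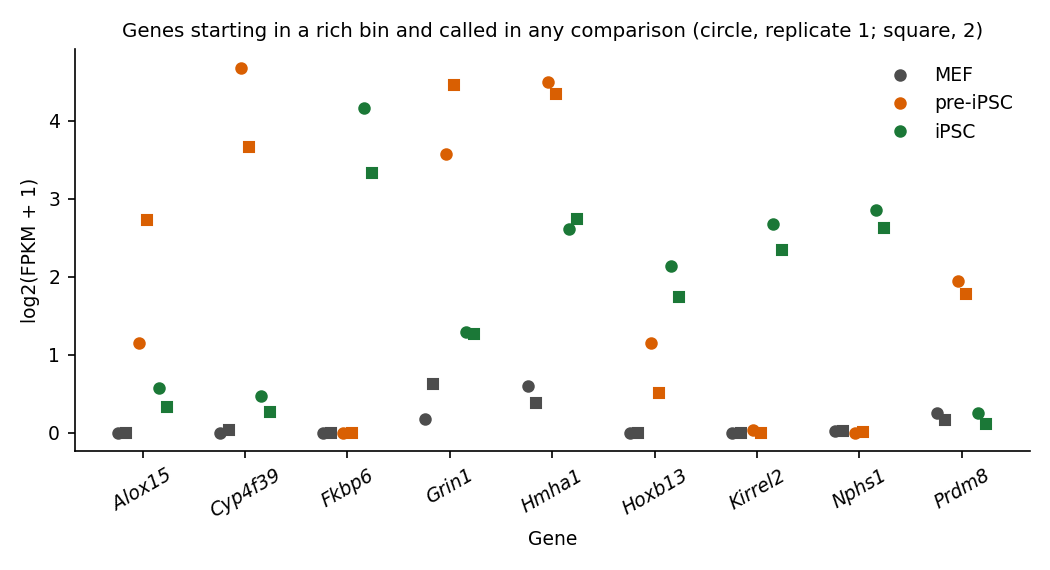
Expression as log2(FPKM + 1) on the y axis of the 9 genes that start in an H3K9me3-rich bin and were called in any comparison, with a point for each library (circle, replicate 1; square, replicate 2). All 9 genes are under 1 on this scale in MEFs, and 5 of them are highest in pre-iPSCs.

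Most zinc finger genes overlapping the bins reached 1 FPKM, and few were called changed, which with 2 libraries per cell type does not show that they stayed the same. At least 1 FPKM was reached by 28 and 20 of the 34 genes for MEFs, 27 and 22 for pre-iPSCs and 23 and 24 for iPSCs. Of the 31 tested by limma, 1 was called in any of the 3 comparisons, where 6.27%, 4.90% and 14.4% of the 367 zinc finger genes tested were called. This was Zfp334, lower in iPSCs than in MEFs, at 6.93 and 2.77 FPKM for MEFs, 4.05 and 3.19 for pre-iPSCs, and 0.70 and 1.02 for iPSCs (log2 change -1.56, SE 0.42, limma adjusted p = 0.033). Zfp146 was at 22.9 and 3.34, 15.1 and 9.70, and 4.37 and 8.71 FPKM, with values that overlapped between cell types. Among all 204 genes overlapping the bins, 96 were tested, and 15 were higher and 9 lower in iPSCs than in MEFs (25% called, against 25.9% of all genes). Between pre-iPSCs and MEFs 11 were higher and 8 lower (19.8% called, against 16.4%), and between iPSCs and pre-iPSCs 9 were higher and 8 lower (17.7%, against 8.62%).

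The genes that write, read and remove H3K9 methylation were given as a fixed list of 24, of which 23 were tested. Between pre-iPSCs and MEFs 1 was higher, the demethylase gene Kdm3a (8.22 and 4.90 FPKM in MEFs, 25 and 24.0 in pre-iPSCs), where 7.39% of all genes tested were called higher and 9.0% lower. Between iPSCs and MEFs 8 differed, all of them higher in iPSCs, where 10.3% of all genes tested were called higher. They were the corepressor Trim28 (log2 change 1.69), the HP1 gene Cbx1 (1.19), the methyltransferase Suv39h2 (1.43), the chromatin remodeller Hells (2.17), the histone chaperone Daxx (1.81) and the demethylases Kdm1a (1.15), Kdm3a (1.55) and Kdm4c (1.65). Between iPSCs and pre-iPSCs Hells and Daxx were higher, where 3.91% of all genes were, and the other writers were not called in any comparison: Setdb1 was at 11.3 and 3.71 FPKM for MEFs, 28.1 and 12.4 for pre-iPSCs, and 14.3 and 16.3 for iPSCs, and Suv39h1 at 18.2 and 9.95, 30.5 and 21.2, and 16.7 and 12.8.

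Called H3 nucleosomes had a slightly wider spread of reads in the bins than over all autosomal bins. The mean fuzziness (the spread of reads around a called centre, in bp) of H3 calls with at least 2 reads was 32.7 and 33.5 bp in MEFs, against 31.7 and 32.6 bp over all autosomal bins. It was 30.1 and 33.3 bp in pre-iPSCs against 26.4 and 32.1 bp, and 34.7 and 33.6 bp in iPSCs against 32.4 and 32.2 bp. For MEF H3K9me3 it was 27.2 bp in the bins and 24.1 bp over all bins. The bins were chosen on these H3K9me3 reads, so the last value is a description. The bins also held more H3 reads than the mean autosomal bin, and the part of the read number in these spreads was not tested.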

How the data were processed

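Per the study's methods, MNase-digested chromatin was immunoprecipitated with antibodies to H3, H3K4me3, H3K27me3 or H3K9me3, and unique alignments to mm9 made with Bowtie 1.0.1 were shifted by 73 bp to the nucleosome centre and called as nucleosomes by GeneTrack. The 21 deposited nucleosome files give each called nucleosome with its read count, not normalized, and a fuzziness score in bp that the authors' caller wrote. Reads outside calls are not in these files. The authors made the 2 deposited FPKM tables (20156 genes, 1 table per replicate) with TopHat2 2.0.4 and Cufflinks 2.0.2.

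Read counts were summed per 10-kb bin by call centre and divided by the mean autosomal bin of the library. H3, H3K4me3 and H3K27me3 were tested over all bins, sex chromosomes included, by edgeR 4.0.16 (quasi-likelihood, TMM, Benjamini-Hochberg), with all 6 libraries of a mark in 1 fit. Genes averaging 0.5 FPKM or more were tested as log2(FPKM + 1) by limma 3.58.1 with the table as a term. H3K9me3, with 1 library per cell type, was not tested and has exact Poisson intervals. DESeq2 1.42.0, other scalings, filters and thresholds, and each library left out were tried as alternatives. Scripts were tested on simulated data.

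Named bins were the highest in MEFs, the longest runs, and those with the largest and smallest changes. Named genes were those starting in the bins that were called or highest in MEFs. The bins and gene lists were chosen with earlier results of these data known.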

Additional observations from a re-analysis of the deposited data

How the results depend on the processing

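H3K9me3 had 1 library per cell type, so none of its levels has a replicate check, and calls outside nucleosomes, reads in repeats that do not map uniquely and the antibody's efficiency are not covered by the counting intervals. In all, 98 of the alternative values stayed within the range set for an unchanged result and 49 moved. A count was taken as unchanged within 1.5-fold of the main count, and its split by direction was not looked at. A share of bins was taken as unchanged inside the 95% binomial interval of the main share, which treats bins as independent. The number of H3K9me3-rich bins was 3476 at a threshold of 2 times the mean, 68 at 3 times, 277 with an H3 limit of 1.5 and 2929 when calls of at least 2 reads alone were summed. The share of bins at the threshold in pre-iPSCs and iPSCs was 15.1% and 17.9% at 2 times the mean, and 11.2% and 16.9% with calls of at least 2 reads. In iPSCs it was 5.88% at 3 times the mean and 7.22% with the H3 limit of 1.5. Divided by H3 it was 2.21% in pre-iPSCs and 0.442% in iPSCs, a scaling that uses the pre-iPSC H3 library that stood apart. On that scale only 53 of the 453 bins reached the threshold in MEFs themselves. These shares are therefore not falls from all 453 bins. Scaling each bin to bins of like GC content, chosen after the data were seen, gave 4.42% and 4.19%, with median levels of 2.23, 1.38 and 1.28 in the 3 cell types.

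DESeq2 called fewer bins than edgeR: 13, 1 and 21 for H3K27me3 in pre-iPSCs against MEFs, iPSCs against pre-iPSCs and iPSCs against MEFs, and 9 and 37 for H3K4me3 in the first and last of these. It also called fewer of all bins: 7015, 20 and 7375 of 245852 for H3K27me3, and 2810 and 7448 of 246197 for H3K4me3. With calls of at least 2 reads, 2 bins were called for H3K27me3 between iPSCs and pre-iPSCs and 11 for H3K4me3 between pre-iPSCs and MEFs. For genes with most of their body in the bins, 18 were tested in place of 17, and 1, 0 and 3 were called; the cause was not tested.

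Leaving out 1 library at a time gave 12 to 57, 0 to 8 and 21 to 66 called bins for H3K27me3, 1 to 27, 0 to 3 and 19 to 77 for H3K4me3, and 0 to 271 for H3 between iPSCs and pre-iPSCs. For expression it gave 4 to 7, 1 to 9 and 3 to 7 called genes. A group left with 1 library was assumed to vary like the others. The numbers called over all bins and all genes also moved in these fits, so the ranges are not particular to the H3K9me3-rich bins.

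The labels do not tie equal replicate numbers together, and not every pair of cell types had replicate differences that correlated above 0.1. The numbers were therefore not taken to pair the ChIP-seq libraries. The expression fit did hold a replicate term, since each FPKM table holds 1 replicate of every cell type. Between pre-iPSCs and iPSCs the correlation was 0.837 for H3, 0.279 for H3K4me3, 0.266 for H3K27me3 and 0.112 for RNA. Between MEFs and pre-iPSCs it was -0.367, -0.274, -0.132 and 0.346, and between MEFs and iPSCs -0.294, -0.236, -0.206 and -0.205. With the replicate block 48, 3 and 63 bins were called for H3K27me3, 13, 0 and 71 for H3K4me3 and 0 for H3. Without the block, which the expression fit holds, 5, 7 and 5 genes were called, as with it.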
